A study of Mus musculus with 12 samples.

Results

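Fibroblasts can be driven into senescence by very different injuries, and the comparison described here measured what 2 of them had in common. All 6 treated RNA-seq libraries of the study were set against all 6 vehicle libraries, which together are the 12 of 12 libraries of the series, with the experiment as a block so that each treatment was read against its own vehicles. The cells were a primary line of fibroblasts, abbreviated MMF, from the fat pad of the mammary gland of a healthy B6 mouse. In the first experiment (labelled dsn, for DNA damage) 3 libraries came from cells given doxorubicin at 100 nM for 24 h and lysed on day 7, and 3 came from their H2O vehicle. In the second (labelled osn, for oxidative stress) 3 libraries came from cells given hydrogen peroxide at 750 uM for 2 h on 3 occasions, each with 48 h of recovery, and lysed on day 6, and 3 came from their own H2O vehicle. All groups share 1 line from 1 animal. The labels record routine splitting of both vehicle groups to keep them at a healthy density and record none for treated cells, so treatment and passaging cannot be told apart in any difference below. Nothing in the labels tells whether the 3 libraries of a group came from separate cultures, and the p-values therefore measure only the spread between these libraries, which may be technical.

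Doxorubicin traps topoisomerase II on DNA and leaves double-strand breaks, whereas hydrogen peroxide oxidises DNA, lipids and proteins. Senescence is a lasting stop of cell division in cells that stay alive. It is held by the p53 target p21 and by p16, and it is known for loss of lamin B1, secretion of cytokines, chemokines, proteases and matrix proteins (the senescence-associated secretory phenotype) and, often late, an interferon response to the cell's own nucleic acids. Mammary fibroblasts make the collagen-rich stroma around the ducts, so their secretions reach the neighbouring epithelium.

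Libraries held an estimated 17.3 to 37.6 M (1e+06) reads, with 21.4 to 37.6 M in treated and 17.3 to 21.9 M in vehicle libraries (exact two-sided permutation p = 0.015 over the 400 relabellings within experiments, adjusted 0.02 over the 4 library measures, smallest p possible 0.005). Treated libraries had more genes at 1 CPM (counts per 1e+06 reads assigned to genes) or more, 12601 to 12822 against 12239 to 12364 (exact permutation p = 0.005, adjusted 0.02), a lower share of mitochondrially encoded transcripts, 1.26 to 1.56% against 1.42 to 2.00% (p = 0.01, adjusted 0.02), and a higher share in the 50 highest genes, 21.5 to 23.4% against 20.5 to 22.2% (p = 0.035, adjusted 0.035). The part of these measures in the results was not tested. The first principal component, with 52.8% of the variance, separated treated from vehicle libraries. Along the second, with 23.7%, doxorubicin replicate 1, doxorubicin vehicle replicate 3 and peroxide replicate 2 stood apart from the others of their groups. Fibroblast markers were abundant in all libraries, and their summed level was 28380 to 35900 CPM in treated and 18810 to 19890 CPM in vehicle libraries, with 8 of 10 higher and 0 lower. Summed markers of other cells were far below this. Leukocyte markers summed to 25.7 to 37.8 against 16.1 to 25.8 CPM (2 of 4 tested higher, the pan-leukocyte gene Ptprc at or under 0.0927 CPM in every library), and endothelial markers to 22.9 to 45.2 against 5.67 to 16.4 CPM (1 of 1 higher, Cldn5 at 0). Schwann cell markers summed to 33.8 to 46.7 against 12.2 to 25.7 CPM and pericyte markers to 14.9 to 20.5 against 8.92 to 28.8 CPM. Summed epithelial markers were lower in treated cells (26.0 to 87.6 against 126 to 189 CPM), which was Krt19 (-1.69), while the other 2 tested, Krt7 (1.38) and Esr1 (0.55), rose. Summed adipocyte markers were lower as well (50.2 to 59.4 against 106 to 144 CPM), with 2 of 4 tested lower and 2 higher.

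Across 13280 tested genes, 6299 changed in the average effect of both treatments (limma, adjusted p under 0.05), which is 47.4% of genes. Of all tested genes 23.0% rose and 24.5% fell, 3052 and 3247 genes, and the median effect over all genes was -0.01 on the log2(CPM + 1) scale. An average can be called when only 1 treatment acts. Of the 6299 genes, 3520 were also called with each treatment alone in the same direction, 2550 with 1 of the treatments alone and 228 with neither, and the effects of 1982 differed between treatments. Doxorubicin alone was called higher in 22.1% of genes and lower in 27.8%, and peroxide alone in 27.3% and 23.4%. Both treatments raised 1729 genes (13.0%) and lowered 1791 (13.5%), which was 53.1% of all doxorubicin calls and 52.3% of all peroxide calls. The difference between treatments was called in 33.6% of genes. In the bulk libraries used here, fewer cells of a type and less RNA per cell cannot be told apart.

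A stricter set, called the shared core below, held the genes called in the average effect that moved by at least 1 log2 unit in the same direction in each experiment, with no treated library overlapping a vehicle library of its experiment. It held 774 genes, 471 higher (3.55% of tested genes) and 303 lower (2.28%), and absence of overlap in both experiments was by itself met by 15.2% of genes upward and 16.2% downward. Since the size of effect chose these genes, their effects are given as a description. The median average effect was 1.76 in the higher genes (range 1.02 to 6.01) and -1.45 in the lower genes (-2.68 to -1.02). Increases reached much farther than decreases. The smaller of the 2 effects was at least 2 log2 units in 117 higher and 13 lower genes, and at least 3 in 42 and 0. Of the core, 65 higher and 63 lower genes exceeded the threshold by less than 0.1 log2 units, and another 89 and 72 genes met the other conditions and missed it by less than 0.1. By class, 443 of the higher genes were protein-coding and 8 were lincRNAs, and 278 of the lower genes were protein-coding and 17 were processed pseudogenes. With the 3 libraries that stood apart left out, 720 of the 774 genes were again in the core.

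**Figure D1:**
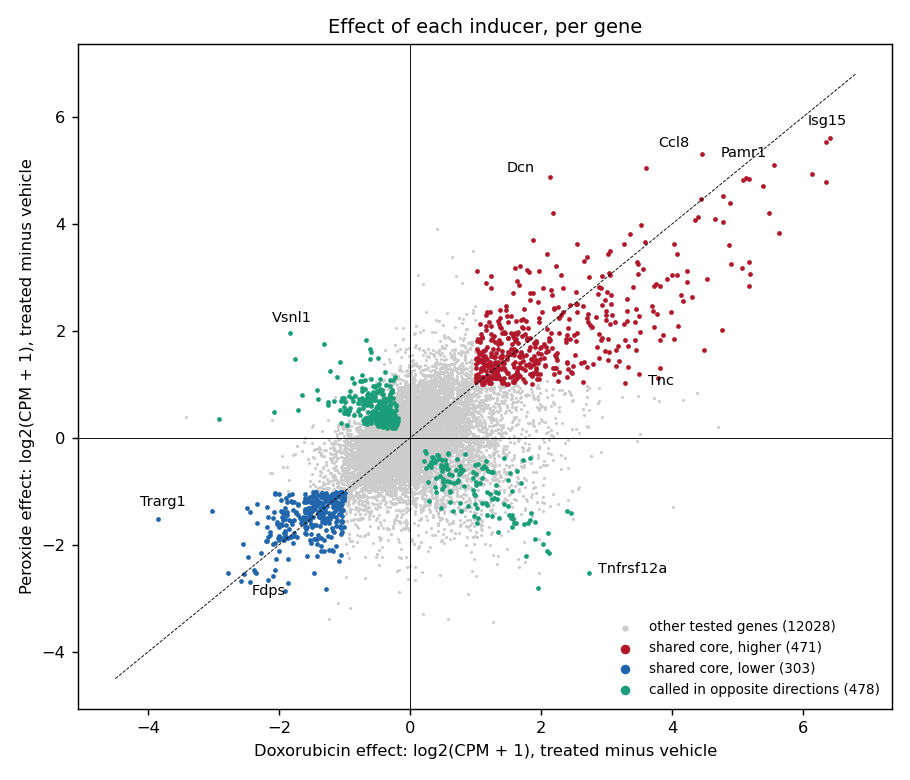
Effect of doxorubicin (x axis) and of peroxide (y axis) on each of the 13280 tested genes, as treated minus vehicle in log2(CPM + 1), each point a gene and the dashed line equal effects. The 471 higher core genes (red) reach past 6 on the x axis and past 5 on the y axis, the 303 lower core genes (blue) mostly stay above -3, and the 478 genes called in opposite directions (green) lie in the other 2 quadrants.

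Antiviral genes led the increases. Interferons are secreted proteins that, through receptors on the cell surface, turn on a large set of genes with antiviral roles. All 57 tested genes of an interferon-response list rose and 0 fell, against 23.0% and 24.5% of all genes. The list was chosen with earlier results of these data known, so its count is a description. Some members, such as Oas3, had no read in any vehicle library. They passed the filter of 1 CPM through treated libraries alone and could only rise. The median average effect of the 57 genes was 2.56 (3.07 with doxorubicin, 2.16 with peroxide), against -0.01 over all genes. Core genes were 50 of them, while 3.55% of all genes were higher core genes. The largest core changes were ranked by the smaller of the 2 effects, among genes of at least 5 CPM and without predicted gene models. Of the 12 largest increases so ranked, 9 were genes of this list, namely Isg15, Usp18, Ifit1, Oasl2, Rtp4, Ifit3, Gbp3, Xaf1 and Irf7.

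Isg15 encodes a ubiquitin-like protein that is joined to other proteins during the antiviral response (chromosome 4, 156199424 to 156200818, mm10). Isg15 was at 318, 296 and 300.2 CPM in the doxorubicin libraries against 2.71, 2.28 and 2.82 in their vehicles, and at 89.1, 175 and 80.3 in the peroxide libraries against 1.08, 1.10 and 1.56 in theirs. All vehicle libraries were low, all treated libraries were high, and peroxide replicate 2 was above the other peroxide libraries. The average increase was 6.01 ± 0.20 log2 units (SE, adjusted p = 7.05e-10). Usp18, a protease that removes ISG15 and damps interferon signalling (chromosome 6, 121245906 to 121270917), followed it, with 607, 413 and 466 CPM after doxorubicin against 6.27, 4.29 and 4.57 in its vehicles, and 121, 235 and 119 CPM after peroxide against 2.10, 2.24 and 2.43 in its own. All treated libraries were again above all vehicles, and its increase was 5.95 ± 0.21 (adjusted p = 1.00e-09). Xaf1, a pro-apoptotic protein induced by interferon (chromosome 11, 72301629 to 72313733), moved by nearly the same amount in both experiments. Xaf1 stood at 130.2, 102 and 121 CPM after doxorubicin (vehicles 4.83, 4.19 and 4.26) and at 61.3, 82.0 and 61.8 CPM after peroxide (vehicles 1.93, 2.05 and 2.43). No treated library overlapped a vehicle, the average increase was 4.45 ± 0.10 (adjusted p = 1.20e-10), and the difference between treatments was -0.01 ± 0.19 (SE, adjusted p = 0.972).

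Bst2, tetherin, an antiviral membrane protein (chromosome 8, 71534255 to 71537456), was already present in vehicles. Bst2 stood at 346, 339 and 361 CPM after doxorubicin (vehicles 22.6, 19.3 and 19.03) and at 166, 160.4 and 145 CPM after peroxide (vehicles 11.3, 10.8 and 13.6). All 6 treated libraries were above all 6 vehicles, by 3.83 ± 0.09 log2 units on average (adjusted p = 1.20e-10). Irf7, the transcription factor that amplifies interferon production (chromosome 7, 141262706 to 141266481), was low in vehicles. Irf7 stood at 154, 204 and 210.4 CPM after doxorubicin (vehicles 6.76, 5.11 and 4.57) and at 44.8, 76.5 and 37.5 CPM after peroxide (vehicles 0.967, 1.62 and 1.85). Doxorubicin libraries were the highest, peroxide libraries were all above every vehicle, and the increase was 4.64 ± 0.19 (adjusted p = 3.33e-09). Rtp4, an interferon-induced inhibitor of viral replication, rose by 4.96 ± 0.14, the 2'-5' oligoadenylate synthetase-like gene Oasl2 by 5.01 ± 0.16, the guanylate-binding protein gene Gbp3 by 5.05 ± 0.16 and Ifit1, which binds foreign RNA caps, by 5.54 ± 0.24. Ifit3 rose by 5.57 ± 0.31, a value that is uncertain since 51.2% of its 50-base sequence windows also occur in other genes, mainly Ifit3b. Oas2, a sensor of double-stranded RNA, had no read in any of the 6 vehicle libraries and 5.28 to 39.1 CPM in the treated ones. Set against a floor of 3 reads (0.154 CPM, the mean over vehicle libraries), it was at least 228-fold higher after doxorubicin and at least 40.4-fold higher after peroxide. The transcription factor genes Stat2 and Irf9, which act below the interferon receptor, rose by 2.55 and 2.20.

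Many core genes held the interferon-stimulated response element (ISRE) in their promoters. Shown are those of the 3 interferon genes and 2 MHC class I genes with the smallest adjusted p among the members with a match, chosen for holding it. Each line gives 60 bases before the start of the RefSeq gene on GRCm38.p6 (mm10), 5' to 3' on the gene's strand, with matches to GAAANNGAA on either strand in capitals.
Isg15 (ISRE, chr4:156200851-156200910, minus strand): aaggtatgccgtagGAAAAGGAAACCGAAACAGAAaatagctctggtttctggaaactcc
Bst2 (ISRE, chr8:71537563-71537622, minus strand): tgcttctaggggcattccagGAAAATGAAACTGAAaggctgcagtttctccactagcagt
Gbp3 (ISRE, chr3:142559980-142560039, plus strand): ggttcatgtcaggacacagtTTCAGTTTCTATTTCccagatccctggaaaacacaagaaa
B2m (ISRE, chr2:122147522-122147581, plus strand): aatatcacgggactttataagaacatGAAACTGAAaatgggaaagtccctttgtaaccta
H2-T22 (ISRE, chr17:36042899-36042958, minus strand): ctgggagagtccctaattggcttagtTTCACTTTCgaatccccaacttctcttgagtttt
The nearest match lay 58 to 66 bases before the start in Isg15, 116 to 124 in Bst2, 30 to 38 in Gbp3, 131 to 139 in B2m and 182 to 190 in H2-T22. Within the 250 bases before the start, the motif was found in 66 of 317 higher core genes with a promoter sequence (20.8%), 16 of 221 lower core genes (7.24%) and 7.36% of the 9728 tested genes with one (7.13% of all 32851 promoters). It was in 19 of 42 genes of the interferon list (45.2%). Within the last 100 bases the shares were 11.7% of higher core genes, 1.36% of lower ones and 2.46% of tested genes. A match describes letters in this window only. Leukocytes also express many interferon genes. Of 4 tested leukocyte markers Cd68 (0.72) and Lyz2 (2.18) rose, while Cd74 (0.33) and Csf1r (0.003) did not pass the test. The part of such cells in these results was not tested.

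Sensors upstream of interferon did not move as a block. Of 17 tested genes of nucleic-acid sensing, 10 rose and 4 fell (median average effect 0.61), against 23.0% and 24.5% of all genes, so the falls were no more frequent than over all genes. The RNA sensors Ddx58 (RIG-I), Ifih1 and Tlr3 rose by 2.56, 2.30 and 1.59, and the Z-nucleic-acid sensor Zbp1 by 4.12, but these are interferon-induced genes themselves, and Ddx58, Ifih1 and Zbp1 are also on the interferon list. Cgas, the sensor of cytoplasmic DNA, fell (average effect -0.50 ± 0.13, adjusted p = 0.00921), and so did the kinase Tbk1 (-0.44). The adaptors Sting1 (-0.11) and Mavs (0.16) and the factor Irf3 (0.11) did not pass the test. The interferon gene Ifnb1 had too few reads to be tested, at 0.326, 0.160 and 0.227 CPM in doxorubicin libraries and 0 in the other 9.

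Antigen presentation rose with the interferon genes. MHC class I molecules show peptides cut by the proteasome to T cells. Of 19 tested genes of this pathway 17 rose and 0 fell, against 23.0% and 24.5% of all genes. The median was 1.31, and 9 were core genes (3.55% of all genes were higher core genes). B2m, the common light chain (chromosome 2, 122147686 to 122153083), gave 1840, 1645 and 1831 CPM after doxorubicin against 521, 507 and 527 in its vehicles, and 1109, 1072 and 1196 CPM after peroxide against 369.8, 376 and 413 in its own. Every treated library was above every vehicle, by 1.66 ± 0.06 (adjusted p = 2.47e-09). The heavy chain genes H2-D1 and H2-K1 rose by 2.28 and 2.03, the peptide transporter Tap1 by 2.63 and the immunoproteasome subunits Psmb8 and Psmb9 by 3.07 and 2.16. H2-T22 rose by 1.78, but shares 53.5% of its windows, mainly with H2-T10. Calr, a chaperone of the pathway, was at 0.07 and did not pass.

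Complement genes encode secreted proteins that mark cells and microbes for removal. Of 14 tested members 11 rose and 0 fell (median 1.32), against 23.0% and 24.5% of all genes. C4b (chromosome 17, 34728380 to 34743882) was the largest, with 64.6, 81.0 and 72.5 CPM after doxorubicin against 1.85, 1.55 and 2.40 in its vehicles, and 25.9, 23.6 and 16.1 CPM after peroxide against 0.341, 0.334 and 0.289 in its own. It rose by 4.37 ± 0.15 (adjusted p = 8.18e-10) without overlap, although 34.6% of its windows occur in C4a as well. Serping1, the C1 inhibitor, rose by 3.44 ± 0.16, Cd55, which protects the cell's own membrane from complement, by 2.46 ± 0.14, and C3 by 1.0.

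Among cytokines and chemokines, a part of the secretory phenotype, the CC chemokines Ccl8 and Ccl11 had the largest increases. In this list 21 of 26 tested genes rose (23.0% of all genes did) and 0 fell, with a median of 1.08 on average, 1.52 with doxorubicin and 0.61 with peroxide. The treatments differed in 17 of the 26, against 33.6% of all genes. Ccl8, which attracts monocytes (chromosome 11, 82115185 to 82116799), was among the 12 largest core increases. Ccl8 was at 139, 118 and 126 CPM in the doxorubicin libraries against 4.54, 4.88 and 5.13 in their vehicles, and at 80.1, 77.3 and 77.8 in the peroxide libraries against 0.853, 1.14 and 1.04 in theirs. Every treated library was far above every vehicle. The increase of 4.88 ± 0.14 log2 units (adjusted p = 2.75e-10) was larger with peroxide (5.30) than with doxorubicin (4.46, difference -0.85, adjusted p = 0.00102). Ccl11, eotaxin (chromosome 11, 82057823 to 82062955), leaned the other way, with 24.1, 21.5 and 25.9 CPM after doxorubicin against 0.247, 0.365 and 0.359 in its vehicles, and 8.71, 11.5 and 7.71 CPM after peroxide against 0.171, 0.476 and 0.405 in its own. Treated and vehicle libraries did not overlap, and the average increase was 3.57 ± 0.22 (adjusted p = 9.21e-08). Ccl5 rose by 2.32 and Ccl2 by 1.54. Il6, the cytokine most used as a marker of the secretory phenotype (chromosome 5, 30013114 to 30019981), gave 5.63, 4.09 and 5.33 CPM after doxorubicin against 0.888, 0.410 and 0.410 in its vehicles, and 2.03, 2.50 and 2.90 CPM after peroxide against 1.71, 1.24 and 1.04 in its own. Levels were low in all libraries, treated ones were all above the vehicles, the increase was 1.26 ± 0.23 (adjusted p = 0.000769), and it was 1.94 with doxorubicin against 0.58 with peroxide (adjusted p of the difference 0.00227). Cxcl1 (0.96, adjusted p = 0.105) and Mif (-0.48) did not pass the test.

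The NF-kappa-B site, the element for a factor that drives cytokine genes, was searched by name in the same windows and occurred in 7 of 18 cytokine and chemokine genes with a promoter (38.9%), against 10.4% of tested genes, 11.0% of higher core genes and 8.15% of lower ones. The 3 of them with the smallest adjusted p were these, with matches in capitals.
Lif (NF-kappa-B site, chr11:4257365-4257424, plus strand): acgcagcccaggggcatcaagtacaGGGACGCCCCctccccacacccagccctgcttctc
Il6 (NF-kappa-B site, chr5:30013045-30013104, plus strand): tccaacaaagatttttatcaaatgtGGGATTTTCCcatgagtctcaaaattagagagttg
Csf1 (NF-kappa-B site, chr3:107760589-107760648, minus strand): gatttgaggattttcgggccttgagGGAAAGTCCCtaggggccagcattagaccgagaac
The match lay 35 to 44 bases before the start in Il6, 145 to 154 in Csf1, the gene of macrophage colony-stimulating factor, and 169 to 178 in Lif, the gene of leukaemia inhibitory factor, which rose by 0.99 ± 0.17. Transcription factors of inflammation had smaller effects. Of 21 tested genes 9 rose and 2 fell (23.0% and 24.5% of all genes did), the median was 0.45 and 0 were core genes. The largest were Bcl3 (1.04), Fosl2 (1.01) and Fos (0.99), Rela rose by 0.45, and Cebpb, a regulator of senescence secretion, was at -0.06 (adjusted p = 0.792).

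Proteases and their inhibitors rose in 21 of 27 tested genes and fell in 1 (median 0.997), against 23.0% and 24.5% of all genes. Pappa, a metalloprotease that frees IGF from its binding proteins (chromosome 4, 65124174 to 65357509), gave 93.0, 75.7 and 78.0 CPM after doxorubicin against 17.2, 16.2 and 20.5 in its vehicles, and 156, 149 and 140.3 CPM after peroxide against 43.5, 39.0 and 39.9 in its own. All treated libraries were above all vehicles, by 1.99 ± 0.09 (adjusted p = 7.40e-09). Timp3, a matrix-bound inhibitor of metalloproteases, rose by 1.90 ± 0.07, the aggrecanase Adamts5 by 1.30 ± 0.07, Mmp2 by 1.59 and the plasminogen activator Plat by 1.76. Serpine2, a protease inhibitor, had the largest value of the list at 2.90 ± 0.46 (adjusted p = 0.000256), while Plaur, the urokinase receptor, was at -0.73 and did not pass. Growth factors and their binding proteins were more mixed, with 19 of 33 higher, 1 lower and a median of 0.59. Vegfd, a growth factor of lymphatic vessels, rose by 1.54 ± 0.10, Tgfb3 by 1.25 ± 0.10 and Igf1 by 1.70 ± 0.15. Vegfa (0.12) and Gdf15 (0.22) did not pass. In SenMayo, a published panel of senescence genes, 43 of 78 tested members rose and 7 fell, against 23.0% and 24.5% of all genes. The median was 0.59, and 17 were core genes, of which 1, Hmgb1, was lower. Over all tested genes 3.55% were higher and 2.28% lower core genes. The panel members with the smallest adjusted p were Ccl8, Fas and Pappa.

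Extracellular matrix rose mainly in its small proteoglycans and fibre-associated glycoproteins. Of these, 33 of 39 rose and 1 fell (median 1.06), against 23.0% and 24.5% of all genes. They held 15 core genes, while 3.55% of all genes were higher core genes. Prelp, a leucine-rich proteoglycan that anchors basement membranes to connective tissue (chromosome 1, 133910304 to 133921414), was the largest. Prelp was at 286, 248 and 247 CPM in the doxorubicin libraries against 8.88, 7.25 and 9.54 in their vehicles, and at 144, 176 and 145 in the peroxide libraries against 6.20, 4.38 and 6.82 in theirs. All vehicles were low and all treated libraries high, with an increase of 4.65 ± 0.11 log2 units (adjusted p = 1.20e-10). The difference between treatments was 0.25 ± 0.21 (adjusted p = 0.377). Mfap5, a microfibril protein (chromosome 6, 122505845 to 122529290), gave 1131, 963 and 1013 CPM after doxorubicin against 128, 119 and 144 in its vehicles, and 727, 849 and 748 CPM after peroxide against 123, 127 and 137 in its own. Treated libraries lay above every vehicle, by 2.78 ± 0.09. Thbs1 rose by 2.69, fibronectin (Fn1) by 1.67 and lumican (Lum) by 2.11. Pamr1, a secreted protein with a peptidase domain that is linked to muscle regeneration (chromosome 2, 102550012 to 102643041), was on no matrix list but was among the 3 largest core increases by the smaller of its 2 effects. Pamr1 stood at 84.4, 71.4 and 76.3 CPM after doxorubicin (vehicles 0.444, 0.593 and 0.975) and at 34.9, 45.6 and 40.3 CPM after peroxide (vehicles 0.0569, 0.238 and 0.289). It was near 0 in all vehicles and rose by 5.33 ± 0.12 (adjusted p = 1.20e-10).

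Collagens themselves moved less than the proteins around them. Of 17 tested collagens 10 rose and 1 fell, against 23.0% and 24.5% of all genes. Their median was 0.38, and 3 were core genes (3.55% of all genes were higher core genes). Col1a1, the main chain of type I collagen (chromosome 11, 94936224 to 94953042), gave 2611, 3859 and 2567 CPM after doxorubicin against 2364, 2463 and 2403 in its vehicles, and 3446, 3087 and 3960 CPM after peroxide against 2709, 2197 and 2406 in its own. Treated libraries were above the vehicles of their own experiment, though 2 of the doxorubicin libraries only just, and the average increase was 0.41 ± 0.11 (adjusted p = 0.00983). Alone, the peroxide effect of Col1a1 passed (0.52, adjusted p = 0.0135) and the doxorubicin effect did not (0.30, adjusted p = 0.122). Col5a1 rose by 1.26 ± 0.07, and Col3a1 by 1.60 ± 0.19 with a larger effect of peroxide (2.13 against 1.07, adjusted p = 0.00371). Genes of crosslinking and folding rose in 11 of 17 (median 0.55), among them P4ha3 (1.54) and Loxl2 (1.28). Basement membrane genes rose in 11 of 14 (median 0.76, but 1.06 with doxorubicin and 0.34 with peroxide). With each treatment alone 5 of the 14 were called higher in both, against 13.0% of all genes, with Lama4, a laminin chain of vessels and mesenchyme, at 4.32 ± 0.22. Contractile genes rose in 15 of 26 and fell in 1, but their median was 1.20 with doxorubicin and 0.34 with peroxide, and all 16 members whose effects differed were higher with doxorubicin. Acta2, the alpha smooth muscle actin gene (chromosome 19, 34241090 to 34255590), gave 3015, 2539 and 2733 CPM after doxorubicin against 866, 878 and 978 in its vehicles, and 5163, 6550 and 4598 CPM after peroxide against 3899, 4477 and 4033 in its own. The peroxide vehicles were above the doxorubicin-treated libraries, and the groups separated only within experiments. Its average of 0.99 ± 0.20 (adjusted p = 0.0014) combined 1.60 with doxorubicin and 0.38 with peroxide (adjusted p of the difference 0.000632), and it missed the threshold without the experiment term (adjusted p = 0.110). Itga11, a collagen receptor of fibroblasts, rose by 3.36 ± 0.28 on average, 3.56 with doxorubicin and 3.155 with peroxide. Its doxorubicin libraries were widely spread, at 19.2, 77.3 and 45.6 CPM.

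**Figure D2:**
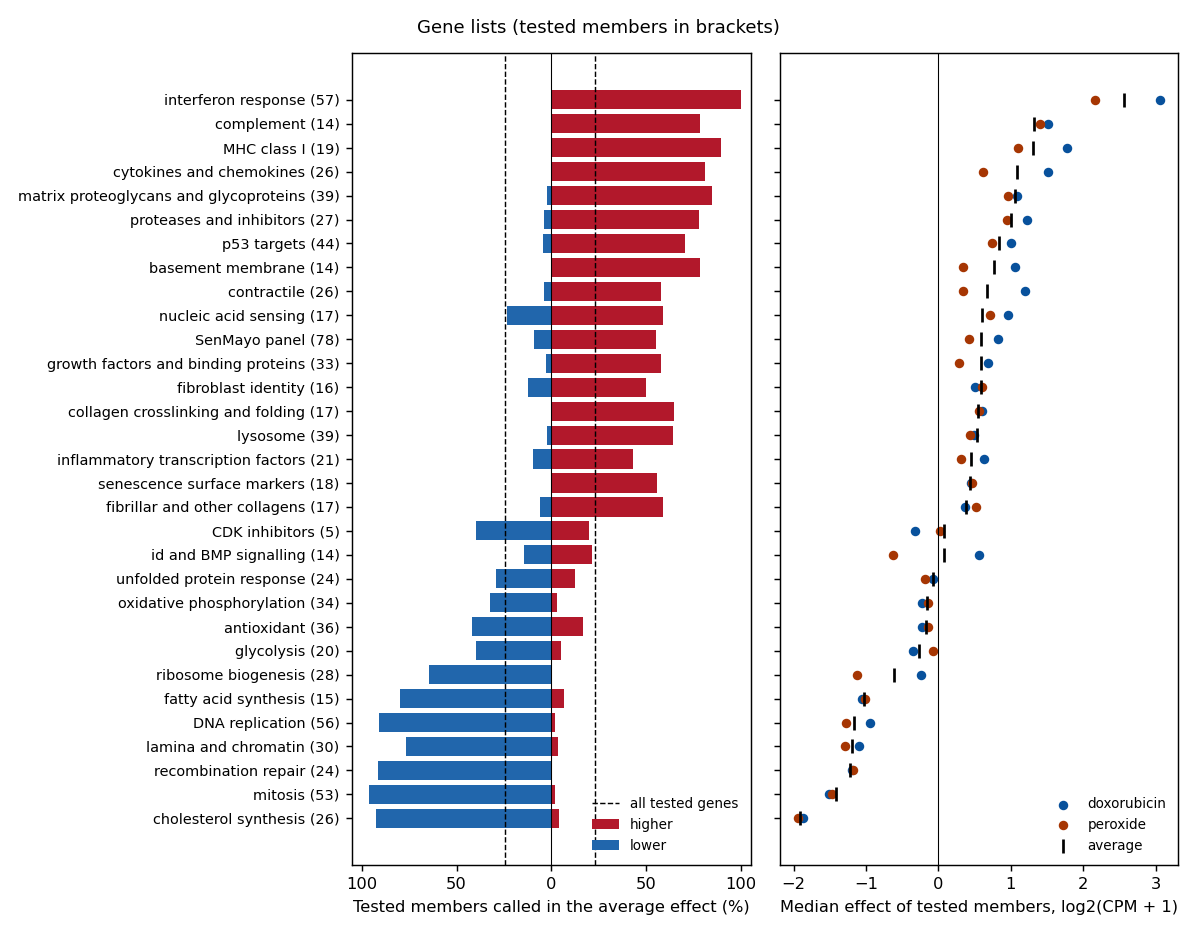
Left, the share of each list's tested members (number in brackets) called higher (red, to the right) or lower (blue, to the left) in the average effect, with dashed lines at the 23.0% and 24.5% of all tested genes. Right, the median effect of the same members with doxorubicin (blue points), peroxide (orange points) and on average (black bars), in log2(CPM + 1); interferon response is at the top at 2.56 and cholesterol synthesis at the bottom at -1.91.

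Targets of p53, the factor that links DNA damage to arrest, mostly rose. Of 44 tested targets 31 rose and 2 fell, against 23.0% and 24.5% of all genes, with a median of 0.83. Core genes were 13 of them, while 3.55% of all genes were higher core genes. Cdkn1a, which encodes the CDK inhibitor p21 (chromosome 17, 29090976 to 29100727), gave 993, 1003 and 946 CPM after doxorubicin against 245, 240.1 and 139.9 in its vehicles, and 699, 371 and 749 CPM after peroxide against 233, 251 and 254 in its own. All treated libraries were above all vehicles, with peroxide replicate 2 the lowest of them. The average increase was 1.75 ± 0.23 (adjusted p = 6.50e-05), 2.27 with doxorubicin and 1.23 with peroxide (adjusted p of the difference 0.0461). Mdm2, the ligase that degrades p53 (chromosome 10, 117688875 to 117710758), showed a wider gap. Mdm2 stood at 290.2, 317 and 362 CPM after doxorubicin (vehicles 39.8, 38.7 and 36.6) and at 251, 215 and 244 CPM after peroxide (vehicles 81.0, 72.8 and 76.5). All treated libraries were above all vehicles, although the peroxide vehicles stood above the doxorubicin vehicles. Mdm2 rose by 2.32 ± 0.22 (adjusted p = 3.76e-06), 3.04 against 1.61 (adjusted p of the difference 4.44e-05).

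Fas, the death receptor (chromosome 19, 34290666 to 34327772), moved by nearly the same amount in both experiments. Fas was at 53.6, 40.6 and 45.4 CPM in the doxorubicin libraries against 7.40, 6.88 and 7.03 in their vehicles, and at 46.0, 40.6 and 43.7 in the peroxide libraries against 6.37, 6.53 and 7.63 in theirs. Treated libraries of both experiments reached similar levels, the increase was 2.52 ± 0.08 (adjusted p = 6.58e-10) and the difference was 0.04 ± 0.16 (adjusted p = 0.862). Cd80, a T-cell costimulatory ligand, rose by 3.53 ± 0.17, Btg2, an antiproliferative protein, by 1.98 ± 0.09, and the BH3-only gene Pmaip1 by 3.04. Bbc3 (0.03), Sesn1 (0.12) and Gdf15 did not pass the test, and Tigar fell (-0.87). Among CDK inhibitors, Cdkn1a alone of 5 tested rose. Cdkn1b, p27, fell (-0.69 ± 0.20, adjusted p = 0.0132), a call that rested on doxorubicin (-0.99, adjusted p = 0.0084, against -0.40 with peroxide, adjusted p = 0.229) and was lost without the 3 libraries that stood apart (adjusted p = 0.0873). Cdkn2d was just past the threshold (-1.01 ± 0.38, adjusted p = 0.0451), a call lost under 12 alternatives (adjusted p = 0.0518 to 0.0919). Its effect was -0.33 with doxorubicin (adjusted p = 0.586) and -1.70 with peroxide, where replicate 2 was at 7.07 CPM and replicates 1 and 3 at 34.0 and 33.7. Cdkn2a, the gene of p16 and ARF, was found at 0.0466 CPM in doxorubicin replicate 1 alone, and Cdkn2b, which lies beside it, in none of the 12 libraries. A difference in these was not detectable at this depth.

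Division genes fell nearly as a block. Of 53 tested mitosis genes 51 fell and 1 rose, against 24.5% and 23.0% of all genes, with a median of -1.41 (-1.51 with doxorubicin, -1.47 with peroxide). Core genes were 38 of them, while 2.28% of all genes were lower core genes. Mki67, the Ki-67 antigen of cycling cells (chromosome 7, 135689784 to 135716361), gave 17.6, 17.5 and 19.97 CPM after doxorubicin against 70.8, 80.1 and 78.8 in its vehicles, and 35.7, 31.7 and 34.9 CPM after peroxide against 133, 122 and 121 in its own. Every treated library was below every vehicle, and some transcript remained in all of them. It fell by 1.93 ± 0.07 log2 units on average (adjusted p = 1.10e-09). Sgo1, the guardian of sister chromatid cohesion, fell by 1.92 ± 0.07, the checkpoint gene Mad2l1 by 1.56 ± 0.06, the kinetochore gene Ska1 by 2.26 ± 0.18 and Ncapg, a condensin subunit, by 2.16 ± 0.23. Plk1, the mitotic kinase, fell by 2.10 ± 0.55 (adjusted p = 0.00778), with a wide error. Cdca8 (-1.29, adjusted p = 0.0609) did not pass, and the securin gene Pttg1 rose (0.57 ± 0.08, adjusted p = 0.000111).

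Promoters of mitosis genes are shown for the cell cycle homology region (CHR), TTTGAA, the element through which the DREAM complex and MuvB act on late cell-cycle genes. Matches on either strand are in capitals.
Mki67 (CHR, chr7:135716445-135716504, minus strand): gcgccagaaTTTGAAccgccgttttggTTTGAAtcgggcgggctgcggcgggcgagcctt
Kif22 (CHR, chr7:127042421-127042480, minus strand): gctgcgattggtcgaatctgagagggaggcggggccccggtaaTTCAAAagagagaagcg
Kif2c (CHR, chr4:117178843-117178902, minus strand): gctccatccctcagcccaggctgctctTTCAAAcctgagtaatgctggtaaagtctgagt
The nearest match was 93 to 98 bases before the start in Mki67, 12 to 17 in Kif22 and 98 to 103 in Kif2c. These genes fell by 1.93, 1.71 and 1.29, and the last 2 encode kinesins. TTTGAA occurred in 14 of 45 mitosis promoters (31.1%), 58 of 221 lower core genes (26.2%), 62 of 317 higher core genes (19.6%) and 13.0% of tested genes. The CCAAT box, CCAAT, on either strand, was in 31 of 45 mitosis promoters (68.9%), 60.6% of lower core genes, 39.8% of higher core genes and 41.4% of tested genes.

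DNA replication fell with mitosis. Of 56 tested replication genes 51 fell and 1 rose (median -1.16, 24 core genes), and of 24 recombination repair genes 22 fell and 0 rose (median -1.23, 13 core genes). Over all tested genes 24.5% fell, 23.0% rose and 2.28% were lower core genes. Lig1, which seals Okazaki fragments (chromosome 7, 13277283 to 13311433), gave 28.7, 26.9 and 28.1 CPM after doxorubicin against 83.6, 87.3 and 87.0 in its vehicles, and 32.8, 39.9 and 36.0 CPM after peroxide against 122, 131 and 130.0 in its own. All treated libraries were below all vehicles, by 1.69 ± 0.07 log2 units (adjusted p = 2.80e-09). The clamp loader gene Rfc4 fell by 1.32 ± 0.06, the licensing inhibitor Gmnn by 1.53 ± 0.07, and the helicase subunit Mcm5 by 1.65 ± 0.11. Exo1, an exonuclease of resection, fell by 1.61 ± 0.10, Rad54l by 1.34 ± 0.07 and Brca1 by 1.13. E2f1, the activator of S-phase genes, was the replication gene that rose (0.71 ± 0.08, adjusted p = 2.49e-05), and Ccne1 (0.04) did not pass.

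E2F sites were searched as TTTCCCGC and TTTGGCGC on either strand, and 3 replication promoters with one are shown, matches in capitals.
Mcm5 (E2F, chr8:75109334-75109393, plus strand): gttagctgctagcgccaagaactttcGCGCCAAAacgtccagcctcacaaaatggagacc
Pola1 (E2F, chrX:93632260-93632319, minus strand): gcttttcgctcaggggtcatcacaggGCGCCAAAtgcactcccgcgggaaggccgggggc
Cdc6 (E2F, chr11:98907987-98908046, plus strand): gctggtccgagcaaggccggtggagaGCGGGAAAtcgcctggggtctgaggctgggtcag
Matches lay 142 to 149 bases before the start in Mcm5, 131 to 138 in Pola1, the catalytic subunit of polymerase alpha, and 131 to 138 in Cdc6, a licensing factor. They occurred in 6 of 45 replication promoters (13.3%), 6.79% of lower core genes, 1.58% of higher core genes and 2.95% of tested genes.

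Nuclear architecture changed in the same direction. Of 30 tested lamina and chromatin genes 23 fell and 1 rose (median -1.20, 15 core genes). Over all tested genes 24.5% fell, 23.0% rose and 2.28% were lower core genes. Lmnb1, lamin B1 (chromosome 18, 56707813 to 56753424), gave 1.44, 1.44 and 0.907 CPM after doxorubicin against 4.54, 4.60 and 5.64 in its vehicles, and 2.08, 1.48 and 1.31 CPM after peroxide against 5.86, 7.38 and 5.61 in its own. Levels were low throughout, all treated libraries were below all vehicles, and the average was -1.44 ± 0.11 (adjusted p = 7.65e-07). Hmgb2, a chromatin protein that leaves senescent nuclei early (chromosome 8, 57511907 to 57515999), gave 30.3, 30.9 and 32.1 CPM after doxorubicin against 142, 150.5 and 140.1 in its vehicles, and 55.1, 48.9 and 52.9 CPM after peroxide against 195, 180.4 and 195 in its own. The treated libraries lay below every vehicle. Hmgb2 fell by 2.01 ± 0.07 (adjusted p = 1.31e-09) and by slightly more with doxorubicin (-2.18 against -1.84, adjusted p of the difference 0.0216). Its relative Hmgb3 fell by 2.21 ± 0.07, the linker histone H1f5 by 2.34 ± 0.14, the lamin B receptor Lbr by 2.00 ± 0.24, the histone variant H2az1 by 1.92 ± 0.07 and the methyltransferase Ezh2 by 1.38 ± 0.11. Lamin A (Lmna, -0.25) and emerin (Emd, -0.16) did not pass the test. Hmgb2, Hmgb3 and H2az1 share 18.7%, 25.0% and 35.4% of their windows with other gene models.

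Sterol synthesis held 6 of the 12 largest decreases of the core, ranked by the smaller of the 2 effects under the same limits as the increases. Cells build cholesterol from acetyl-CoA through mevalonate and squalene, under the control of SREBP2 and its retaining protein INSIG1. Of 26 tested genes 24 fell and 1 rose, against 24.5% and 23.0% of all genes. Core genes were 17 of them, while 2.28% of all genes were lower core genes. The list's median of -1.91 (-1.87 with doxorubicin, -1.94 with peroxide) was the lowest of the 31 lists. The 6 genes were Fdps, Lss, Idi1, Stard4, Acat2 and Insig1. Of these, Acat2 and Idi1 share 39.1% and 25.3% of their windows with other gene models. Fdps, farnesyl diphosphate synthase (chromosome 3, 89093588 to 89101959), gave 214, 179.6 and 189 CPM after doxorubicin against 1138, 1167 and 1208 in its vehicles, and 129, 148 and 116 CPM after peroxide against 791, 868 and 852 in its own. Treated libraries lay far below every vehicle, and the decrease was 2.63 ± 0.07 log2 units (adjusted p = 1.28e-10); 26.2% of its windows also occur in a pseudogene model.

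Lss, which closes the sterol rings, fell by 2.54 ± 0.06, Idi1, isopentenyl diphosphate isomerase, by 2.57 ± 0.07, Insig1 by 2.41 ± 0.16 and Hmgcs1, at the entry of the pathway, by 2.01 ± 0.05 (adjusted p = 1.28e-10). Srebf2 itself was at -1.17 with a wide error and did not pass (adjusted p = 0.0695), and Ggps1, which leads mevalonate away from sterols, rose (0.38). The sterol regulatory element, searched as TCACNCCAC on either strand, was in 1 of 18 promoters of the list, shown here with the match in capitals 129 to 137 bases before the start.
Hmgcs1 (SRE, chr13:119690188-119690247, plus strand): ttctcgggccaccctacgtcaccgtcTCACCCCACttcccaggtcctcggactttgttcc
The same letters were in 1.81% of lower core genes, 1.89% of higher core genes and 1.20% of tested genes.

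Stard4, a sterol carrier (chromosome 18, 33199355 to 33213862), was on the same list. Stard4 was at 23.8, 24.6 and 22.3 CPM in the doxorubicin libraries against 126, 124 and 125 in their vehicles, and at 21.7, 20.3 and 19.4 in the peroxide libraries against 128, 122 and 114 in theirs. Vehicles of both experiments had similar levels, so had the treated libraries, and the decrease was 2.44 ± 0.06 (adjusted p = 1.20e-10). Fatty acid synthesis fell as well, in 12 of 15 tested genes with 1 rise (median -1.02), against 24.5% and 23.0% of all genes. Elovl6, which lengthens palmitate (chromosome 3, 129532355 to 129638495), gave 15.5, 14.6 and 17.5 CPM after doxorubicin against 112, 113 and 119.7 in its vehicles, and 20.4, 19.99 and 19.5 CPM after peroxide against 122, 125 and 114 in its own. Treated and vehicle libraries were widely apart, by 2.66 ± 0.07 log2 units (adjusted p = 1.28e-10). The desaturases Scd1 and Scd2 fell by 1.91 and 1.72, and Fasn, fatty acid synthase, by 1.58. Lpin1, which makes diacylglycerol, rose (1.02). Tfrc, the transferrin receptor that brings iron into cells (chromosome 16, 32608920 to 32632794), was the largest named decrease outside lipid genes by the smaller of 2 effects. Tfrc was at 13.4, 12.3 and 13.7 CPM in the doxorubicin libraries against 65.9, 80.0 and 68.4 in their vehicles, and at 15.5, 12.6 and 15.2 in the peroxide libraries against 89.3, 89.0 and 83.3 in theirs. It fell by 2.44 ± 0.08 (adjusted p = 6.27e-10) to similar levels in both treated groups. Adipocytes are rich in lipid enzymes, and of 4 tested adipocyte markers Pparg (-1.30) and Fabp4 (-1.17) fell and Adipoq (0.99) and Cfd (0.94) rose; the part of such cells in the decreases of lipid genes was not tested.

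**Figure D3:**
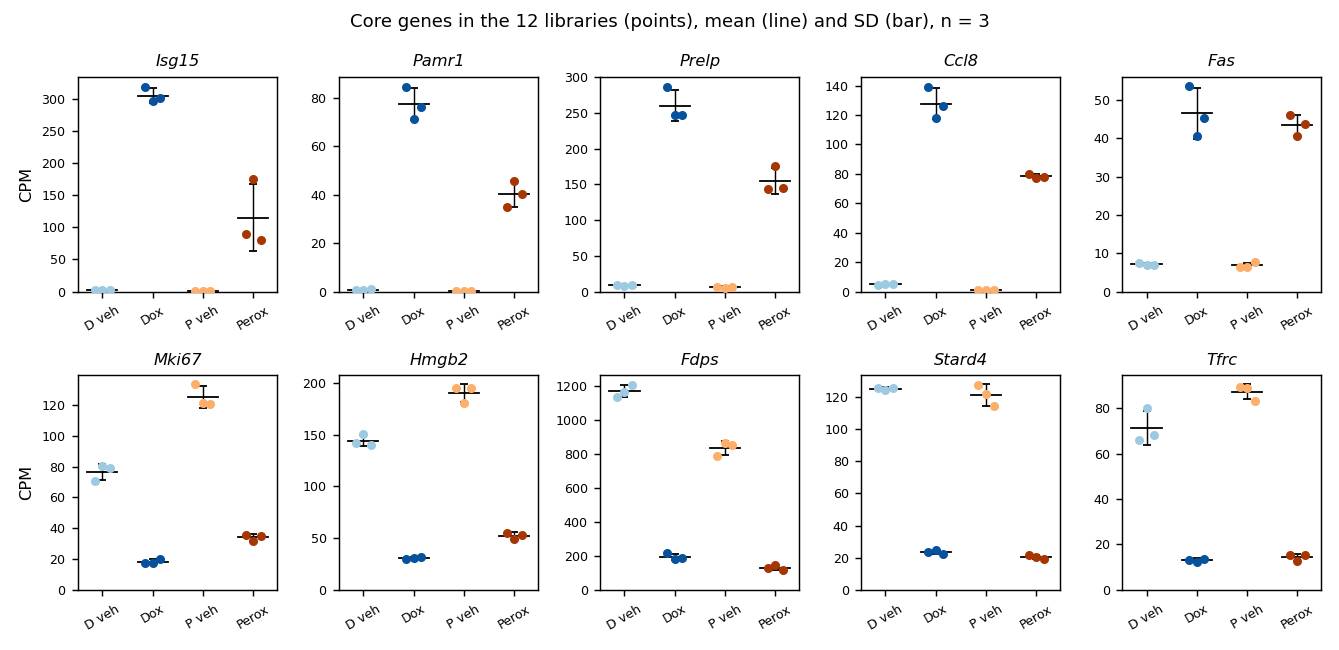
CPM of 10 core genes in the 12 libraries, one panel a gene, by group from left to right (doxorubicin vehicle, doxorubicin, peroxide vehicle, peroxide); points are libraries, horizontal lines means and bars SD (n = 3). Isg15, Pamr1, Prelp, Ccl8 and Fas (top) are higher and Mki67, Hmgb2, Fdps, Stard4 and Tfrc (bottom) lower in treated libraries of both experiments, without overlap.

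Lysosomal genes rose moderately, 25 of 39 with 1 fall and a median of 0.53. Glb1, the beta-galactosidase whose activity stains senescent cells (chromosome 9, 114401076 to 114474898), gave 168, 189.6 and 183 CPM after doxorubicin against 119, 114 and 79.7 in its vehicles, and 156, 140.1 and 168 CPM after peroxide against 104, 104 and 104 in its own. Treated libraries were all above the vehicles, an increase of 0.68 ± 0.10 (adjusted p = 0.000139). The cathepsins Ctsd and Ctsf rose by 1.39 and 2.30, and Ctsc fell (-1.57). Ctsd shares 32.35% of its windows with another gene model. Other metabolic and stress lists had small medians. Antioxidant genes fell in 15 and rose in 6 of 36 (median -0.17), with Gpx3 (2.89), Sod3 (1.52) and Hmox1 (1.19) among those that rose and Slc7a11 (-1.01), the cystine importer, the lowest. The unfolded protein response list fell in 7 and rose in 3 of 24 (median -0.08), led by the serine synthesis genes Psat1 (-1.54) and Shmt2 (-1.45), and neither the chaperone Hspa5 (-0.32) nor Xbp1 (-0.06) passed. Glycolysis fell in 8 and rose in 1 of 20 (median -0.27), and oxidative phosphorylation fell in 11 and rose in 1 of 34 (median -0.15). These shares can be read against 24.5% and 23.0% of all genes.

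As in the contractile, basement membrane and cytokine lists, the average combined unequal effects in ribosome biogenesis and in Id and BMP signalling. Ribosome biogenesis fell in 18 of 28 and rose in 0 (median -0.62), but the median was -0.24 with doxorubicin and -1.12 with peroxide, and all 24 members whose effects differed were higher with doxorubicin. Npm1, nucleophosmin, was an exception with decreases of similar size (-1.14 and -1.06, difference -0.08, adjusted p = 0.512). Id and BMP signalling had a median of 0.07 on average, 0.56 with doxorubicin and -0.63 with peroxide, and all 10 members that differed were higher with doxorubicin. Fibroblast identity genes rose in 8 and fell in 2 of 16 (median 0.59), among them Thy1 (1.01), Pdgfra (0.87) and Cd34 (2.02), while S100a4 fell (-0.62). Surface proteins proposed as markers of senescent cells rose in 10 of 18 and fell in 0 (median 0.43), with Icam1 at 3.40 and Cd274, PD-L1, at 1.83. Over all tested genes 23.0% rose and 24.5% fell, and the effects differed in 33.6%.

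Within the core, effects could still differ in size. The difference was called in 173 of the 471 higher genes (36.7%, 107 larger with doxorubicin) and in 65 of the 303 lower genes (21.5%, 43 larger with doxorubicin), against 33.6% of all tested genes. Of all differences, 40.3% were toward doxorubicin, a share that was 51.1% with median-of-ratios scaling. Decorin (Dcn), a proteoglycan that binds collagen and growth factors (chromosome 10, 97479609 to 97518143), had the largest difference toward peroxide. Dcn stood at 779.8, 688 and 725 CPM after doxorubicin (vehicles 164, 152 and 182) and at 518, 524 and 571 CPM after peroxide (vehicles 17.4, 14.6 and 20.8). Treated libraries were all above all vehicles, the 2 vehicle groups lay farther apart than the treated groups on the log2 scale, and the effects were 2.13 and 4.87 (difference -2.74, adjusted p = 3.60e-06). Tenascin C (Tnc), a matrix protein of wounds, was larger with doxorubicin (3.49 against 1.20, adjusted p of the difference 2.13e-06), as were Apod, a lipocalin (5.18 against 3.28), and Itgbl1 (4.10 against 2.10). Complement factor B (Cfb) was too (5.19 against 3.07), but 73.0% of its windows overlap a read-through model. Ogn, Gas7 and Fbn2 rose more with peroxide (3.13, 4.21 and 3.71) than with doxorubicin (1.02, 2.18 and 1.87). Trarg1, a regulator of glucose transporter traffic, fell more with doxorubicin (-3.84 against -1.52, adjusted p of the difference 4.22e-06). In Tnc, Gas7 and Ogn, as in Dcn, the vehicle groups lay farther apart than the treated groups on the log2 scale. Mean CPM in doxorubicin and peroxide vehicles was 28.62 and 123.8 for Tnc, 50.64 and 7.987 for Gas7, and 52.96 and 14.49 for Ogn. The treated means were 332.5 and 285.2 for Tnc, 233.4 and 164.1 for Gas7, and 108 and 133.6 for Ogn. In Apod, Itgbl1, Cfb and Trarg1 the treated groups lay farther apart instead, and in Fbn2 both pairs were apart.

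Another 478 genes (3.6%) were called with both treatments in opposite directions, and in 477 of them the average was not called. They were 7.21% of doxorubicin and 7.10% of peroxide calls. The exception was Sparcl1, a matricellular protein, at -1.28 on average (-2.92 with doxorubicin and 0.36 with peroxide). In 138 genes doxorubicin was higher and in 340 lower, a share of 28.9% upward that was 47.4% with median-of-ratios scaling. The 2 groups of genes were unlike in spread. The median SD within groups was 0.286 log2 units in genes higher with doxorubicin, 0.115 in genes lower with it and 0.168 over all genes, and their median GC contents were 52.4, 47.5 and 49.2%. The part of spread and GC content in these calls was not tested. Without the 3 libraries that stood apart the count was 761, 407 of them higher with doxorubicin. It was 728 without doxorubicin replicate 1, and 313 to 316 without doxorubicin vehicle replicate 3, peroxide vehicle replicate 1 or peroxide vehicle replicate 2.

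Tnfrsf12a, the receptor of TWEAK (chromosome 17, 23675445 to 23677468), was the largest of those higher with doxorubicin. Tnfrsf12a was at 180.5, 276 and 266 CPM in the doxorubicin libraries against 59.1, 71.0 and 9.59 in their vehicles, and at 51.5, 12.4 and 73.8 in the peroxide libraries against 284, 253 and 140.2 in theirs. Libraries within each group were widely spread, and the doxorubicin group stood near the peroxide vehicles. The effects were 2.73 and -2.53 (adjusted p of the difference 0.00407). Bop1, of ribosome assembly, Uqcrc1, of respiratory complex III, Id1, a BMP target, and Lce1g, a gene of the cornified envelope, had effects of 1.96 to 2.12 with doxorubicin against -2.81 to -1.99 with peroxide. Their libraries were not alike, since doxorubicin replicate 1 lay among its vehicles in Uqcrc1 (68.9 against 34.0 to 85.3 CPM) and in Id1, while the 3 doxorubicin libraries of Lce1g lay close together (5.19 to 5.78 CPM). Peroxide vehicles were spread as well, with replicate 1 the highest in Uqcrc1 (445 against 144 and 85.8 CPM), Id1 (37.7 against 10.7 and 6.88) and Bop1 (64.1 against 34.8 and 20.2). Vsnl1, a neuronal calcium sensor (chromosome 12, 11325242 to 11436613), led the genes higher with peroxide. Vsnl1 stood at 3.91, 4.41 and 3.91 CPM after doxorubicin (vehicles 16.7, 15.96 and 18.7) and at 10.2, 9.64 and 11.4 CPM after peroxide (vehicles 1.42, 2.05 and 2.37). Here libraries were close within groups, and the vehicles differed from each other by more than the treated groups did. The effects were -1.83 and 1.97 (adjusted p of the difference 2.13e-06). Rgs2, an inhibitor of G-protein signalling (-1.76 and 1.47), Selenbp1 (-1.31 and 1.76, with 46.3% of its windows shared with Selenbp2), Cldn15, a claudin (-1.22 and 1.24), and Enpp2, autotaxin (-1.11 and 1.14), followed.

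**Figure D4:**
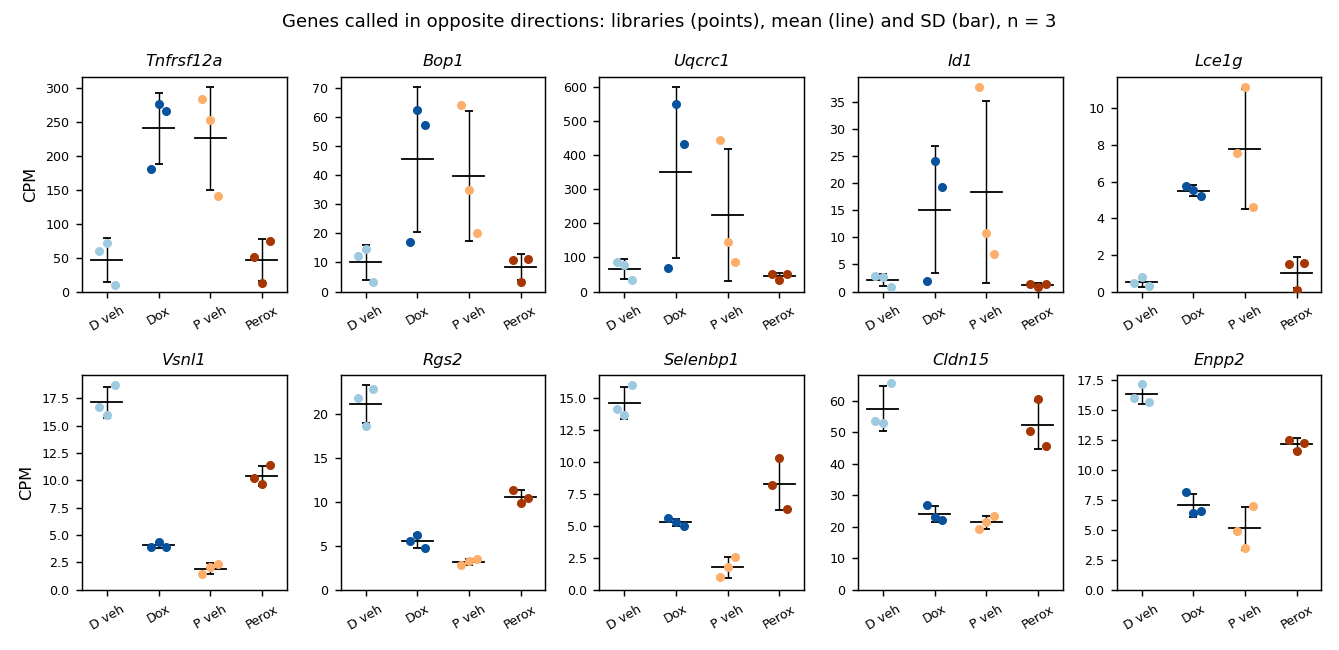
CPM of 10 genes called in opposite directions, one panel a gene, by group (doxorubicin vehicle, doxorubicin, peroxide vehicle, peroxide); points are libraries, lines means and bars SD (n = 3). In the top row, higher with doxorubicin and lower with peroxide, libraries of most groups are widely spread, while in the bottom row, lower with doxorubicin and higher with peroxide, they are mostly close together.

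Some core genes lay side by side in the genome. Runs of at least 3 core genes of the same direction, with starts within 100 kb of the next, numbered 16, 14 higher and 2 lower. They held 61 of the 774 core genes. No such count over all tested genes is given here, so this number cannot be called high or low. Interferon families made up most of them, among them the Ifit cluster on chromosome 19 (34583531 to 34650009, 5 genes, average effects 1.24 to 5.57), the Oas cluster on chromosome 5 (120730333 to 120907521, 6 genes, 1.90 to 4.41), the Trim cluster on chromosome 7 (104244457 to 104507849, 6 genes, 1.69 to 3.38) and Gbp7, Gbp3 and Gbp2 on chromosome 3 (142530342 to 142638008, 3.11 to 5.05). Psmb8, Psmb9, Tap1 and H2-DMb1 formed a run in the MHC (chromosome 17, 34153072 to 34201454, 2.16 to 3.07). Members of these families are similar in sequence, and reads may have been split or shared between them. Outside interferon genes, Ctsd, Lsp1, Tnnt3 and the imprinted non-coding RNA H19 rose together on chromosome 7 (142375911 to 142578143, 1.26 to 3.29). The runs that fell were the keratins Krt36, Krt13 and Krt19 on chromosome 11 (100102007 to 100148665, -1.98 to -1.68) and 4 genes of the Serpinb9 family on chromosome 13 (33149275 to 33335370, -1.67 to -1.63).

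**Figure D5:**
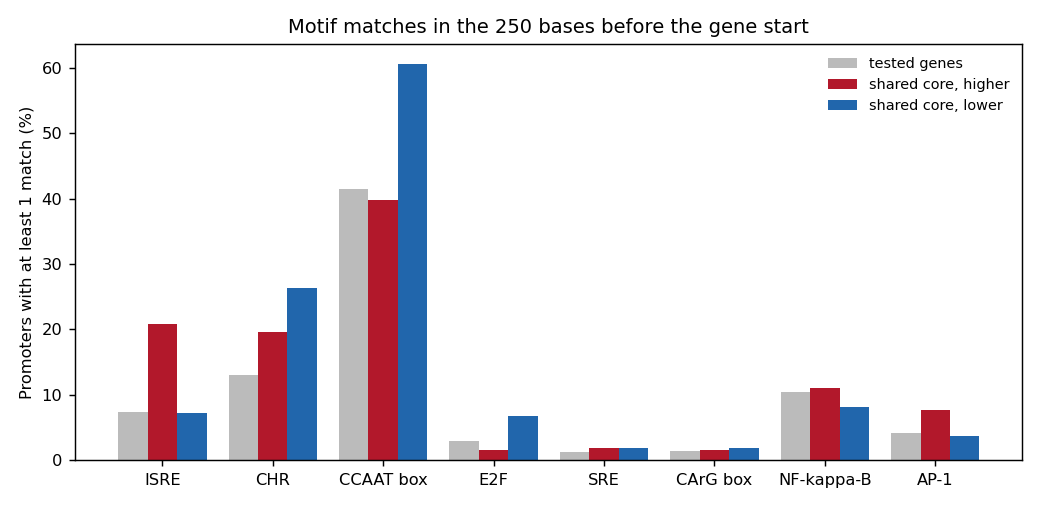
Share of promoters (250 bases before the gene start) with at least 1 match to each of 8 motifs on either strand, in tested genes (grey), higher core genes (red) and lower core genes (blue). The ISRE stands out in higher core genes (20.8% against 7.36%), and the CHR (26.2% against 13.0%), CCAAT box (60.6% against 41.4%) and E2F site (6.79% against 2.95%) in lower core genes; NF-kappa-B sites differ little.

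Promoter motifs could be compared over the whole core. AP-1 sites, TGACTCA on either strand, were in 7.57% of higher and 3.62% of lower core genes against 4.16% of tested genes, and the CArG box, the element of serum response factor searched by name, in 1.58%, 1.81% and 1.39%. The shares are descriptions with no test, and genes of a family can share promoter sequence by descent.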

How the data were processed

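The authors deposited 1 table of CPM for 12 libraries. Per the submitters' processing notes bcl2fastq, DRAGEN and the mm10 build were used, and for counting, strand and annotation release the sources used here name nothing. Of 55774 lines, 287 repeated an identifier with identical values and were dropped (55487 genes left, 99.4% found in GENCODE M21, which gave positions). Depth was read from the most frequent positive value of each library, taken as 1 read. Reads behind the CPM were not whole numbers, so no count model was used, and the floor of 3 reads and all depths cover counting error only. Tested genes reached 1 CPM in 3 or more libraries. Values were taken as log2(CPM + 1), which understates changes of low genes, and fitted with limma 3.58.1 (R 4.3.3, mean-variance trend, two-sided). The average effect came from an additive model of experiment and arm (9 residual and 2.81 prior degrees of freedom), each treatment's own effect and their difference from a model of 4 groups (8 and 3.07), with a Benjamini-Hochberg threshold of 0.05 over all tested genes. The models were tested on simulated data. The 31 lists (815 distinct tested genes) were described by counts and medians, and members, lists and rules were chosen with earlier results of these data known. Named by rule were a 12-gene panel (Isg15, Mdm2, Hmgb2, Glb1, Acta2, Col1a1, Il6, Mki67, Lmnb1 and the CDK inhibitor genes Cdkn1a, Cdkn2a and Cdkn2b), the 12 largest core increases and decreases by the smaller of their 2 effects (at least 5 CPM, no predicted models), the 5 largest opposite effects and core differences each way, and 3 genes a list by adjusted p; other examples were chosen after their values were seen. Windows of 50 bases shared between genes came from GENCODE transcripts, promoters from RefSeq (GRCm38.p6). Alternatives covered pseudocount, filter, scaling, model and left-out libraries. Python 3.11.15, pandas 2.3.3, numpy 2.4.6 and matplotlib 3.10.9 were used.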

Additional observations from a re-analysis of the deposited data

Results flagged for a closer look

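Among the gene panel, the 12 largest core changes each way and the 10 genes singled out for opposite effects, there were 18 for which the effect of doxorubicin differed from that of peroxide by the limma test of the difference (4-group model, adjusted over all tested genes), each value being doxorubicin effect minus peroxide effect in log2 units. Among the panel, the difference was 1.04 for Cdkn1a (2.27 against 1.23), 1.36 for Il6, 1.22 for Acta2, 1.43 for Mdm2 and -0.33 for Hmgb2, all with effects of the same sign in both experiments. Among the largest core increases it was 1.20 for Ifit1, 1.55 for Ifit3 and -0.85 for Ccl8. Cdkn1a was closest to the threshold (adjusted p = 0.0461). Of genes with opposite effects, it was 5.26 for Tnfrsf12a, 4.27 for Lce1g, 4.20 for Bop1, 4.02 for Uqcrc1 and 4.77 for Id1. On the other side it was -3.80 for Vsnl1, -3.23 for Rgs2, -3.07 for Selenbp1, -2.46 for Cldn15 and -2.25 for Enpp2. The causes of these differences were not tested, and the inducers also differ in dose, exposure and day of lysis.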

How the results depend on the processing

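All 26 alternative settings were planned, and each named gene could be fitted under 20 to 25 of them. Most named genes were chosen for large effects or small adjusted p in these same data, so keeping a call was likely. The counts of genes that kept their call do not cover the other called genes. In the average effect 117 of 120 genes kept their call and 0 were reversed, and 10 of 10 differences kept theirs; the exceptions were Acta2 without an experiment term (0.99, adjusted p = 0.110), Cdkn1b without the 3 libraries that stood apart (-0.52, adjusted p = 0.0873) and Cdkn2d under 12 alternatives (adjusted p = 0.0518 to 0.0919). Leaving out each library in turn gave 5675 to 6307 genes in the average effect, 3088 to 3576 called in both the same way, 3157 to 4998 with a difference and 759 to 808 in the core. The core held 1124 genes with a pseudocount of 0.1 and 617 with 2, and array weights gave 6539 differences. The count of opposite genes depended most on the setting. It was 290 with no filter, 1027 with array weights and 761 without the 3 libraries, and it ranged from 313 to 728 when single libraries were left out. Asking for 1 log2 unit left 1286 genes in the average effect, and a core of 1.5-fold or of 2 log2 units in each experiment held 1771 or 130 genes. Same-numbered treated and vehicle libraries were not regularly alike (r of their deviations from group means -0.311, 0.194 and -0.277 with doxorubicin, and 0.143, 0.030 and -0.237 with peroxide). With 3 libraries a group, these values cannot tell whether such libraries were handled together. With a replicate block the average held 5014 genes, the difference 3272, opposite effects 319 and the core 774. The cause of these changes was not tested. Changes of genes at or under 3 reads in vehicles are bounded by depth.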

Other observations

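The genes in this section were chosen after their values were seen. Several predicted gene models that share sequence, at the start of chromosome 9 and on chromosomes 2 and 14, rose together. Gm10800 was at 37.5 CPM on average in treated libraries and 0.181 CPM in vehicles, an average effect of 4.99, and Gm10801 (3.27), Gm21738 (2.32), Gm10718 (2.56), Gm10719 (2.00), Gm10717 (1.62) and Gm10721 (1.24) rose as well. These models share 17.1 to 84.3% of their 50-base windows with one another or with Gm26870, so reads cannot be assigned to a single one, and the source of the reads was not tested. In all, 20 higher core genes had at most 3 reads in each of the 6 vehicle libraries, so they passed the filter of 1 CPM through treated libraries alone. The count of lower core genes in treated libraries was 0. These counts cannot be compared, since 3 reads are a lower CPM in the deeper treated libraries (21.4 to 37.6 M against 17.3 to 21.9 M reads). No such count over all tested genes is given here. Beside Oas2 and Gm10801 the 20 genes included Svop, a synaptic vesicle protein, with at least 5.03 CPM in treated and at most 0.114 CPM in vehicle libraries. Another was Pm20d1, which makes N-acyl amino acids, with at least 2.79 and at most 0.116 CPM.

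The Serpinb9 family, inhibitors of granzyme B and related proteases, split by member on chromosome 13. Serpinb9c (-1.64), Serpinb9d (-1.66), Serpinb9e (-1.67), Serpinb9f (-1.63) and Serpinb9g (-2.26) fell in both experiments, Serpinb9b rose (1.0), and Serpinb9 itself was at -0.07 (adjusted p = 0.667). Serpinb9f and Serpinb9g share 78.7 and 54.9% of their windows with other models. Bglap, osteocalcin, rose by 3.06 and Bglap2 by 3.59, values that cannot be separated since 56.6 and 88.2% of their windows are shared. Lrrc15, a membrane protein of activated fibroblasts, rose by 3.76 and Inhbb, an activin subunit, by 2.97. Ecrg4, a secreted peptide precursor, rose by 4.21, with a difference between inducers of 0.28 (adjusted p = 0.337).

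Iron genes moved apart. Tfrc fell, Trf, transferrin, rose by 2.87 (59.4% of its windows are shared, mainly with a read-through model), and Ftl1, ferritin light chain, was at -0.03 (adjusted p = 0.777). The exporter Slc40a1 rose by 1.86 on average, 0.70 with doxorubicin and 3.02 with peroxide (adjusted p of the difference 0.0142). H19, an imprinted RNA, rose by 3.29 and its neighbour Igf2 by 1.0. Igf2 was low, at 0.514 to 2.10 CPM in treated libraries, and 62.1% of its windows are shared, mainly with Gm49394. The hyaluronan-degrading gene Cemip rose by 3.05, with 3.05 in each experiment, while the hyaluronan synthase Has2 was at 0.18 (adjusted p = 0.306). What links these genes, if anything, was not tested.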
